A study of Mus musculus with 6 samples.

Results

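Furin and its relatives, the proprotein convertases, cut precursor proteins after short runs of basic residues while these pass through the Golgi and the secretory pathway. The transcripts described here encode proteins known to mature by such a cut: cell surface receptors, metalloproteases of the ADAM and MMP families, integrin alpha chains, growth factors, ligands of the TNF family and accessory subunits of the vacuolar ATPase. The cut removes an inhibitory propeptide from a protease, splits a receptor or an integrin alpha chain into linked subunits, or frees a growth factor from its precursor. In T cells Notch receptors, ADAM10 and ADAM17 shape differentiation and the shedding of surface proteins. An array reads transcript abundance only, so none of the values below measures the cut itself.

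The list held 33 genes: 10 receptors, 8 proteases, 4 integrin chains, 9 growth factors and ligands, and 2 vacuolar ATPase subunits. They were chosen by name from the platform's gene symbols, and the probe set whose mean log2 signal over the 6 arrays was highest stands for a gene. Of these, 31 had a probe set with 1 gene symbol, out of 18193 genes in all. The probe sets of Tnfsf12 and Tnfsf13 carry several symbols and are not described. The 31 genes had 80 probe sets, and 30 of the genes lay above the floor on at least 1 array. The floor is a signal of 47.6, the 40th percentile of all probe sets pooled over the arrays, below which values were raised to it.

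The study compared 6 groups of 1 Affymetrix array each, from C57BL/6 mice aged 10 to 11 weeks. The Furin cKO groups carried CD4 cre and Fur flox/flox, so that Cre acts in cells that have expressed Cd4, and the control groups, labelled WT, carried Fur flox/flox alone; both genotypes thus have the floxed allele. For each genotype the arrays are memory cells (CD4+ CD62L- CD44+), regulatory cells (CD4+CD25+FoxP3+), and activated cells (CD4+ CD62L+ CD44- naive cells kept for 2 days on plate-bound antibodies to CD3 and CD28, each at 5 µg/ml). Memory and regulatory cells were sorted and not cultured. How many animals gave each RNA, and whether populations share animals, is unknown here.

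Before any substrate gene is read, 4 measurements bear on the labels and on purity. The Furin probe set gave 2203 on the memory array labelled Furin cKO and 647 on the memory control array, 410.0 and 547 in regulatory cells, and 468 and 516 in activated cells. Where this probe set lies relative to the floxed exon is unknown here, so it checks nothing about the deletion, but the memory value runs opposite to the label. Foxp3, which defines the regulatory gate, was near the floor in regulatory cells (33.8 in Furin cKO, 50.4 in control) and high in memory cells (1116 and 1358), opposite to the labels, whereas 8 of the 9 regulatory markers (Il2ra, Ikzf2, Ctla4, Tnfrsf18, Nrp1, Ikzf4, Capg and Gpr83) were higher on both regulatory arrays than on both memory arrays. Against both other populations, 7 of the 9 regulatory markers were highest on the regulatory arrays. Of the memory markers 5 of 6, and of the activation markers 6 of 8, were highest on the arrays of their own population. Probe sets reaching the floor made up 65.22% and 62.55% of the memory arrays, 67.41% and 65.77% of the regulatory arrays, and 49.82% and 49.44% of the activated arrays, Furin cKO first in each pair.

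Markers of myeloid and dendritic cells were not absent from the sorted memory arrays. Over 18 such genes the summed signal was 34208 on the memory Furin cKO array and 66572 on the memory control array. It was 10322 and 10141 on the regulatory arrays, and 2262 and 2183 on the activated arrays, Furin cKO first. On the memory arrays 18 and 15 of the 18 lay above the floor, on the regulatory arrays 17 and 16, and on the activated arrays 6 and 8, where 10, among them Lyz2, Itgam, Itgax, Siglech and Tyrobp, were below it on both. Summed markers of other cells were also higher on the memory and regulatory arrays than on the activated arrays. The summed signal of 8 granulocyte genes was 8124 and 2168 in memory, 3021 and 1579 in regulatory and 129 and 102 in activated cells. That of 7 B cell genes was 4374 and 3539, 2159 and 1877, and 148 and 154, and that of 5 plasma cell genes 19327 and 12150, 14963 and 19915, and 4255 and 4232. Of the activated plasma cell sums, Xbp1 alone gave 3879.2 and 3830.5. Sdc1 of the same list went the other way, at 71.1 and 98.8 in memory, 65.1 and 49.8 in regulatory and 257.9 and 307.5 in activated cells. Several substrate genes, among them Tnfsf13b, Lrp1, Mmp14 and Adam8, are also known to be expressed by cells of the types above. The part of these cells in the results below was not tested.

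**Figure D1:**
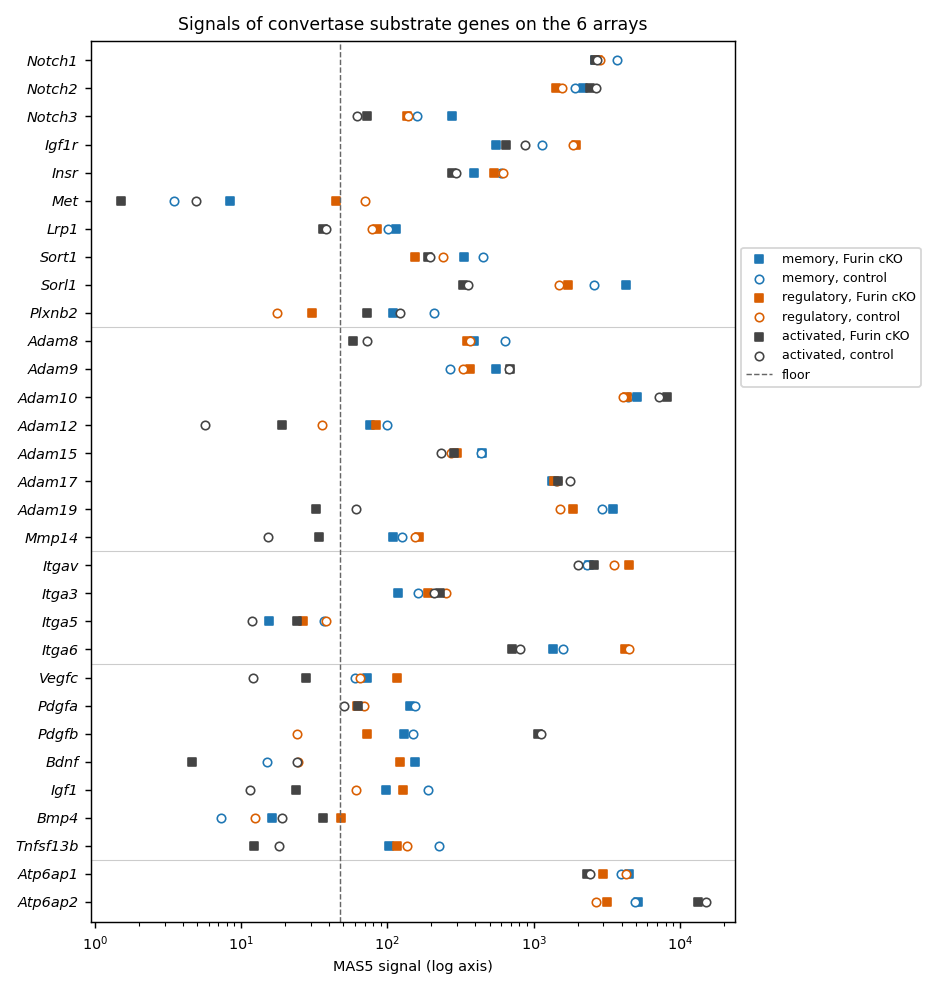
MAS5 signal (log axis) of the 31 substrate genes on the 6 arrays, grouped by role (receptors, proteases, integrin chains, growth factors and ligands, vacuolar ATPase subunits). Filled squares are Furin cKO and open circles control arrays, blue for memory, orange for regulatory and grey for activated cells; the dashed line is the floor of 47.6. The activated arrays stand far to the left for Adam19 and Sorl1 and far to the right for Pdgfb and Atp6ap2, and the genotypes of the activated cells lie closer together than those of the memory cells.

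Adam19, Sorl1 and Adam8 were higher in memory and in regulatory cells than in activated cells, with 4.69-fold in regulatory cells for Sorl1 and 5.50-fold for Adam8, and Itga6 was 1.96-fold and 5.77-fold higher. Pdgfb and Atp6ap2 were lower in memory and in regulatory than in activated cells. The differences were tested with limma, with genotype as a factor, on 15721 genes above the floor on some array. Each population has 2 arrays of different genotype, so the p-values measure the spread left after the genotype factor over the 3 populations and not that between animals. A population and any step shared by its arrays cannot be told apart. In memory over activated cells 13 of 30 substrate genes were called higher and 3 lower at an adjusted p below 0.05, or 43.3% of the genes higher, where 27% and 17.4% of all tested genes were called higher and lower. In regulatory over activated cells 12 were called higher and 5 lower (16.7%), where 26.7% and 18.2% of all genes were. The median log2 difference of the substrate genes was 0.77 and 0.50 in these contrasts, beside 0.21 and 0.22 over all genes. In bulk RNA, fewer cells of a type and less RNA per cell cannot be told apart. Leaving out single arrays moved the number called higher by more than 1.5 times, except in regulatory over activated cells without either memory array. Memory over activated cells gave 8 higher and 1 lower without the memory Furin cKO array, 6 and 0 without the memory control array, 2 and 1 without either regulatory array, 4 and 2 without the activated Furin cKO array, and 3 and 1 without the activated control array. Regulatory over activated cells gave 0 and 0 without either regulatory array, 4 and 2 without the activated Furin cKO array, 2 and 2 without the activated control array, and 10 and 5 without either memory array.

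Scaling changes the balance of those calls. After quantile normalization the median over all genes was 0.00 in both contrasts, a shift of more than 0.2, and the share of higher among called genes was 48.5% and 44.7% instead of 60.8% and 59.4%. Among substrate genes it gave 8 higher and 4 lower in memory and 8 and 8 in regulatory over activated cells. Of the called substrate genes, 11 of 16 and 12 of 17 were called under both scalings. Of the called genes 3 in the first contrast and 5 in the second (Lrp1, Mmp14 and Tnfsf13b in both, Plxnb2 and Vegfc in the second) were below the floor on both arrays of 1 population, so that their fold is a lower bound and the floor removes their spread there.

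Among the receptors, Sorl1 separated the populations most widely. It encodes a sorting receptor of the VPS10 family that loses its propeptide to furin. Its signal was 4287 and 2588 on the memory Furin cKO and control arrays, 1711 and 1501 on the regulatory and 328 and 356 on the activated arrays. The 3 pairs did not overlap. Memory exceeded activated cells 9.75-fold (log2 difference 3.28 ± 0.25 SE, limma adjusted p = 0.0024) and regulatory exceeded activated cells 4.69-fold (2.23 ± 0.25, adjusted p = 0.0048). The other Sorl1 probe sets gave log2 differences of 4.87 and 2.58 in the first contrast and 3.65 and 1.83 in the second, the dimmer of them with 1 activated array below the floor. Sort1, which encodes the related sortilin, read 335 and 454 in memory, 154 and 240.3 in regulatory, and 189 and 197 in activated cells. Only memory over activated was called (2.02-fold, adjusted p = 0.018), and that call was lost with quantile normalization or with the mean of its 3 probe sets.

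The Notch receptors, which furin cuts at the S1 site before they reach the surface, differed in level and in which contrasts were called. Notch1 gave 2625 and 3703 in memory, 2766 and 2842 in regulatory, and 2614 and 2723 in activated cells, and neither contrast against activated cells was called (limma adjusted p = 0.39 and 0.81). Notch2 read 2181 and 1934 in memory, 1412 and 1559.8 in regulatory and 2443 and 2675 in activated cells, and was 1.72-fold lower in regulatory than in activated cells (limma adjusted p = 0.02), a call lost at the 20th percentile floor (0.0502). Notch3 was the dimmer case, at 276 and 159 in memory, 136 and 139 in regulatory and 72.1 and 61.8 in activated cells. It was called higher in both contrasts against activated cells (3.14-fold and 2.05-fold, limma adjusted p = 0.0089 and 0.031), and neither call held after quantile normalization or at the 60th percentile floor; the regulatory call was also lost at the 20th percentile floor and with the mean of probe sets.

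The insulin and insulin-like growth factor receptors are made as single chains that a convertase splits into alpha and beta subunits. Insr read 392 and 603 in memory, 536 and 620.2 in regulatory, and 276 and 297 in activated cells, and was called higher in both contrasts against activated cells (1.70-fold and 2.02-fold, limma adjusted p = 0.034 and 0.016). After quantile normalization or with the mean of its probe sets neither Insr contrast was called, and the memory call was also lost with no genotype factor and at the 20th percentile floor. Igf1r read 549 and 1142 in memory, 1962 and 1853 in regulatory, and 647 and 872 in activated cells. Regulatory cells thus carried the highest Igf1r signal on both arrays, 2.54-fold over activated cells (log2 difference 1.34 ± 0.31 SE, limma adjusted p = 0.029), a call lost at the 20th percentile floor (0.052). Memory cells were 2.41-fold below regulatory cells without passing the test (limma adjusted p = 0.13). The 4 other Igf1r probe sets gave log2 differences of 0.14 to 1.41 for regulatory over activated and of -1.17 to -0.36 for memory over regulatory cells. Lrp1, a large endocytic receptor, was dim at 114 and 100.3 in memory and 84.6 and 78.6 in regulatory cells, and below the floor in activated cells (36.1 and 38.3). The differences were at least 2.25-fold in memory and at least 1.71-fold in regulatory over activated cells (limma adjusted p = 0.0053 and 0.015), and the second turned to a log2 difference of -0.035 with quantile normalization and was not called with the mean of probe sets. Plxnb2, a semaphorin receptor, read 109 and 209.7 in memory, 30.5 and 17.7 in regulatory, and 73.0 and 123 in activated cells. It was at least 1.99-fold lower in regulatory than in activated cells (limma adjusted p = 0.048), a call lost with no genotype factor and at both other floors. Met, the receptor of hepatocyte growth factor, exceeded the floor on the regulatory control array alone (70.1).

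**Figure D2:**
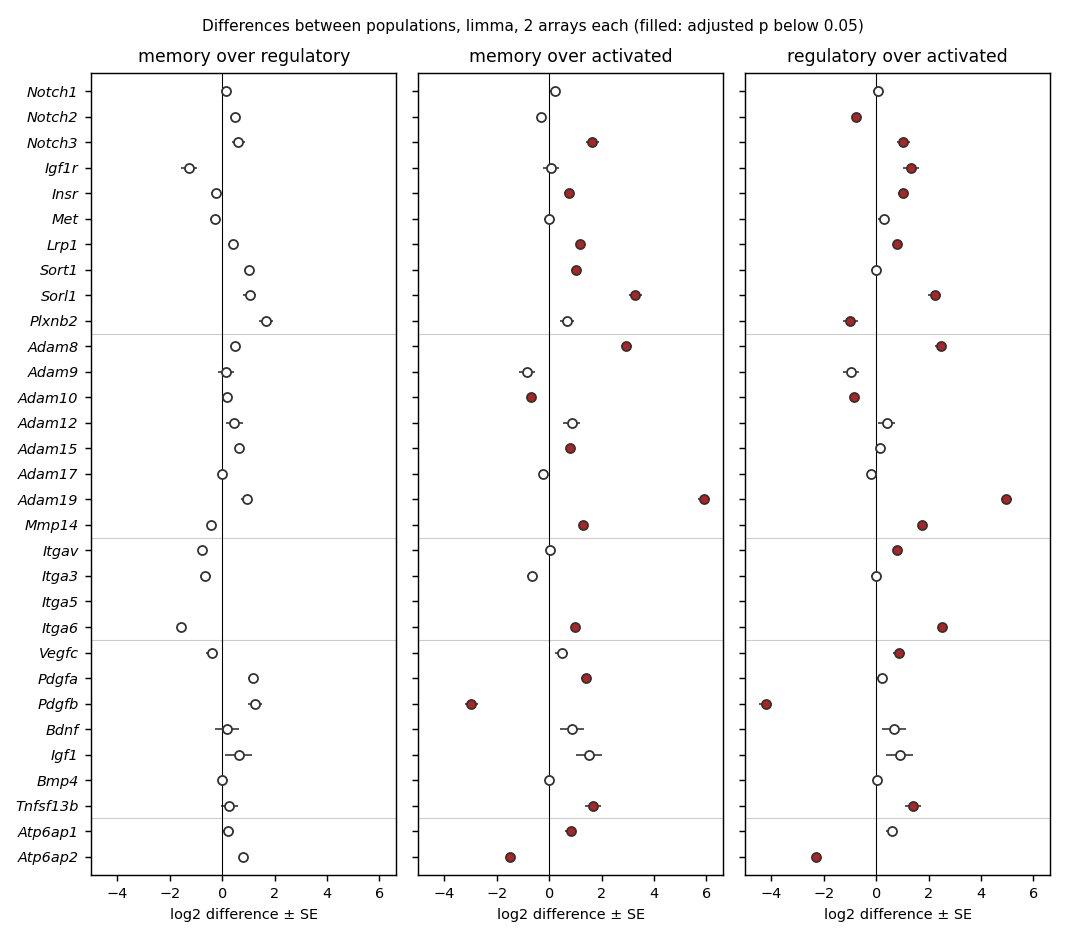
Log2 difference of signal (x axis) for 30 substrate genes, memory over regulatory, memory over activated and regulatory over activated, with 2 arrays per population; bars are the standard error from limma and red points have an adjusted p below 0.05. Adam19 reaches 5.90 and 4.97 over activated cells and Pdgfb -2.97 and -4.22. Values against arrays below the floor, as for Adam19, are lower bounds, and no point is red for memory over regulatory cells.

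Of the proteases, Adam19 showed the widest contrast of the list. This membrane metalloprotease, known as a sheddase of neuregulin, read 3486 and 2950.0 in memory, 1872 and 1511 in regulatory, and 32.6 and 60.7 in activated cells. With the activated Furin cKO value raised to the floor, memory exceeded activated cells at least 59.7-fold and regulatory exceeded activated cells at least 31.3-fold. The log2 differences were 5.90 and 4.97, each ± 0.22 SE (limma adjusted p = 0.0019 and 0.002). Its other probe set, below the floor on both activated arrays, gave at least 3.99 and 3.84 on the log2 scale. Adam8, a leukocyte protease, read 392 and 639 in memory, 350.0 and 366 in regulatory, and 58.7 and 72.1 in activated cells. It was 7.69-fold higher in memory and 5.50-fold higher in regulatory than in activated cells (limma adjusted p = 0.0022 and 0.0029). Mmp14, the membrane-type matrix metalloprotease whose proenzyme furin activates, read 109.5 and 127 in memory and 165 and 154 in regulatory cells and was below the floor on the activated arrays (33.9 and 15.4), so that its differences are lower bounds of 2.48-fold in memory and 3.35-fold in regulatory cells (limma adjusted p = 0.0051 and 0.0031), both lost at the 60th percentile floor.

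The sheddases ADAM10 and ADAM17 had signal on every array, and their probe sets disagreed. The chosen Adam10 probe set read 5091 and 4452 in memory, 4355 and 4106 in regulatory, and 8157 and 7156 in activated cells. It was 1.60-fold lower in memory and 1.81-fold lower in regulatory than in activated cells (limma adjusted p = 0.018 and 0.011). Another probe set had log2 differences of 0.71 and 1.01, the opposite way, and one more had -0.40 and 0.31. With the mean of its 4 probe sets the regulatory difference was 0.16, and the memory call was lost with that mean and at the 20th percentile floor, so no direction is settled for Adam10. Adam17 read 1346 and 1428 in memory, 1383 and 1439 in regulatory, and 1479 and 1767 in activated cells. The chosen probe set passed no test, and both others were higher in regulatory than in activated cells by 0.88 and 1.33 on the log2 scale. With the mean of its probe sets Adam17 was called higher in regulatory than in activated cells (log2 difference 0.67, limma adjusted p = 0.03). Adam15 read 446 and 437 in memory, 298 and 271 in regulatory, and 287 and 231 in activated cells. It was 1.71-fold higher in memory than in activated cells (limma adjusted p = 0.017), a call lost with quantile normalization, under which regulatory cells were called lower than activated cells (log2 difference -0.47 instead of 0.14, limma adjusted p = 0.047). Adam9 read 557 and 266 in memory, 369 and 328 in regulatory, and 691 and 683 in activated cells. It was 1.78-fold lower in memory and 1.98-fold lower in regulatory than in activated cells without passing the test (limma adjusted p = 0.096 and 0.063). After quantile normalization the regulatory difference of Adam9 was called. Adam12 was below the floor on 3 arrays and reached at most 99.0.

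The integrin alpha chains 3, 5, 6 and v are cut into a heavy and a light chain. Itga6, the laminin-binding chain, read 1367 and 1602 in memory, 4236 and 4471 in regulatory, and 708 and 804 in activated cells, 3 pairs without overlap. Regulatory cells exceeded activated cells 5.77-fold (log2 difference 2.53 ± 0.14 SE, limma adjusted p = 0.0021) and memory cells exceeded them 1.96-fold (limma adjusted p = 0.0077). Memory lay 2.94-fold below regulatory cells at adjusted p = 0.061, the smallest of the list in that contrast. Its other probe set gave -2.41 for memory over regulatory cells. Itgav, the alpha v chain, read 2374 and 2314 in memory, 4507 and 3541 in regulatory, and 2589 and 2006 in activated cells. Its regulatory arrays were higher than the other 4, 1.75-fold over activated cells (limma adjusted p = 0.019) and, without passing the test, 1.70-fold over memory cells (limma adjusted p = 0.11). Itga3, the alpha 3 chain, was lower on both memory arrays (118 and 162) than on the activated arrays (229 and 209) without passing the test (limma adjusted p = 0.065). After quantile normalization this difference was called. The other Itga3 probe sets, both dim, gave log2 differences of 0.66 and -0.15 in memory over activated cells, so the direction depends on the probe set. The probe set that stands for Itga5 was below the floor on the 6 arrays.

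**Figure D3:**
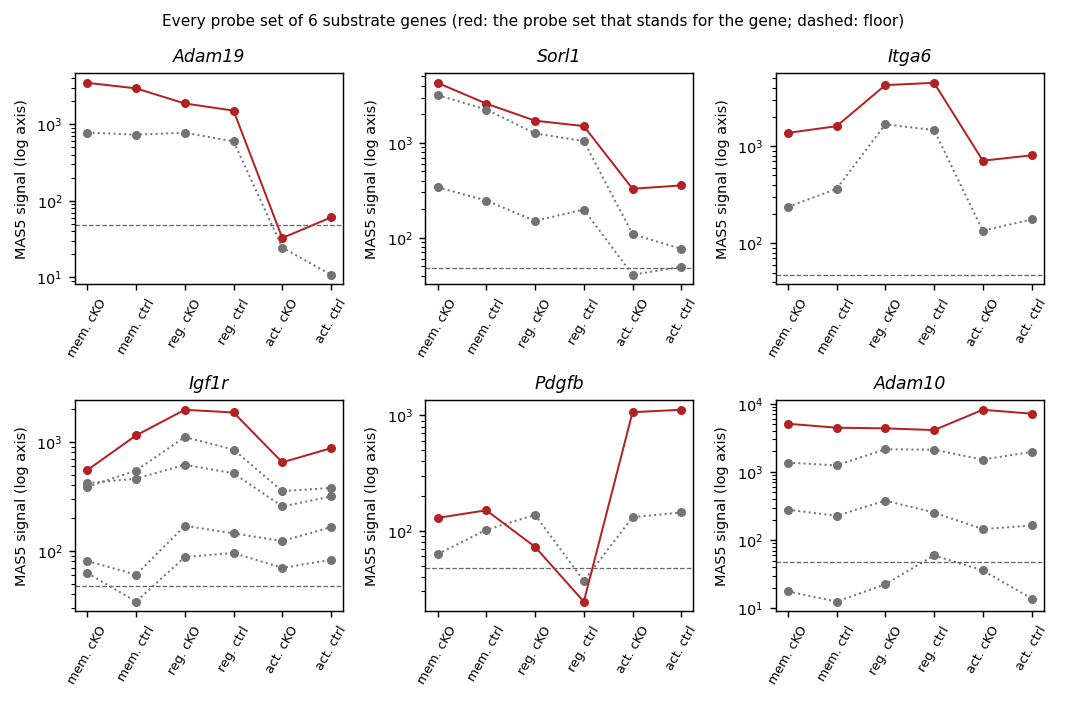
MAS5 signal (log axis) of every probe set of Adam19, Sorl1, Itga6, Igf1r, Pdgfb and Adam10 on the 6 arrays (memory, regulatory and activated, Furin cKO then control). Red marks the probe set that stands for the gene, grey the others, and the dashed line the floor; lines join the arrays of 1 probe set for the eye only. All probe sets of Adam19, Sorl1 and Itga6 are higher in memory and regulatory than in activated cells, and those of Adam10 differ in direction.

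Growth factors and ligands were mostly dim, with 1 marked exception. Pdgfb, the platelet-derived growth factor B chain, read 129 and 151 in memory, 72.6 and 24.3 in regulatory, and 1068 and 1120.2 in activated cells. It was 7.83-fold lower in memory than in activated cells (log2 difference -2.97 ± 0.25 SE, limma adjusted p = 0.0028) and at least 18.6-fold lower in regulatory cells (-4.22 ± 0.25, adjusted p = 0.0021). Its other probe set gave -0.78 and -0.76, the same direction at a much smaller size. Pdgfa, the A chain, went the other way at 142 and 154 in memory, 62.5 and 69.6 in regulatory, and 63.1 and 50.7 in activated cells. Memory exceeded activated cells 2.62-fold (limma adjusted p = 0.0066), which was not called after quantile normalization or at the 60th percentile floor. The other Pdgfa probe set, also dim, gave log2 differences of 0.05 and 0.38 in memory and regulatory over activated cells. For memory over regulatory cells it gave -0.33, opposite to the chosen one (1.17). Under quantile normalization Pdgfa was called lower in regulatory than in activated cells (log2 difference -0.83 instead of 0.22, limma adjusted p = 0.024). Tnfsf13b encodes BAFF, a survival factor of B cells that is released by a furin cut. It read 103 and 224 in memory and 116 and 136 in regulatory cells, and was below the floor in activated cells (12.2 and 18.1), a difference of at least 3.19-fold and 2.63-fold (limma adjusted p = 0.017 and 0.028). Both calls were lost at the 60th percentile floor, the memory call also with the mean of probe sets and the regulatory call with quantile normalization. Vegfc, Bdnf, Igf1 and Bmp4 were below the floor on both activated arrays and read at most 189 elsewhere. Of these Vegfc alone was called, with 116 and 65.0 in regulatory and 27.9 and 12.1 in activated cells, at least 1.82-fold higher in regulatory than in activated cells (limma adjusted p = 0.049). That call was lost with no genotype factor, with quantile normalization and whenever an array was left out.

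The accessory subunits of the vacuolar ATPase, the proton pump of the endosomal and Golgi compartments in which furin works, went opposite ways in memory over activated cells. Atp6ap2, the prorenin receptor, read 5175 and 4937 in memory, 3156 and 2661 in regulatory, and 13258 and 15034 in activated cells. It was 2.79-fold lower in memory and 4.87-fold lower in regulatory than in activated cells (log2 differences -1.48 and -2.28, each ± 0.17 SE, limma adjusted p = 0.0048 and 0.0025), and its 2 other probe sets had the same direction in both contrasts. Atp6ap1 read 4480.2 and 3936 in memory, 2998 and 4286 in regulatory, and 2322 and 2449.8 in activated cells, and memory exceeded activated cells 1.76-fold (limma adjusted p = 0.042), a call lost at the 20th percentile floor.

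Adam19, Adam8, Sorl1, Itga6, Pdgfb and Atp6ap2 were called against activated cells in both contrasts, which share the activated arrays, under each of 5 changes of scaling, floor, probe set summary or model. When single arrays were left out, which leaves 1 residual degree of freedom, Adam19 in memory over activated cells was the 1 call that stood in the 6 fits. Between memory and regulatory cells 0 of 30 substrate genes and 0 of 15721 genes were called by limma (percent called 0), although 15 substrate genes and 3360 genes, or 21.4%, had an unadjusted p below 0.05. By limma Itga6 (adjusted p = 0.020) and Adam19 (0.045) were called there once the floor was set at the 60th percentile, and Itga6 (0.025) and Pdgfa (0.039) with no genotype factor.

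The sequences before the RefSeq start (GRCm38.p6) are given for 3 of these genes, Adam19 and Sorl1 as genes low in activated cells and Atp6ap2 as one high there. Each is the 250 bases before the outermost start of the gene, 5′ to 3′ on the gene's strand. Capitals mark the E-box CACGTG, the GC box GGGCGG, the CCAAT box, the TATA box TATAAA and the Runx motif TGTGGT, each searched on both strands. The windows are chr11:46054252-46054501 on the plus strand for Adam19, chr9:42124298-42124547 on the minus strand for Sorl1 and chrX:12587509-12587758 on the plus strand for Atp6ap2.
Adam19: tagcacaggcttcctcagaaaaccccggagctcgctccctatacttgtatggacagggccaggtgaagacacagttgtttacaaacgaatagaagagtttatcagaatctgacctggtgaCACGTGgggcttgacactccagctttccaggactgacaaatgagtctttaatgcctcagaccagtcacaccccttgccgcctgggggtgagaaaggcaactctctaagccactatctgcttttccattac
Sorl1: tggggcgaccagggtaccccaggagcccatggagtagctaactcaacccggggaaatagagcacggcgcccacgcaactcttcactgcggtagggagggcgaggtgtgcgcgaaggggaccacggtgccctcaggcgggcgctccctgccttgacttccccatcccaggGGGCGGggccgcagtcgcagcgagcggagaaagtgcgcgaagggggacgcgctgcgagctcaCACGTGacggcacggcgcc
Atp6ap2: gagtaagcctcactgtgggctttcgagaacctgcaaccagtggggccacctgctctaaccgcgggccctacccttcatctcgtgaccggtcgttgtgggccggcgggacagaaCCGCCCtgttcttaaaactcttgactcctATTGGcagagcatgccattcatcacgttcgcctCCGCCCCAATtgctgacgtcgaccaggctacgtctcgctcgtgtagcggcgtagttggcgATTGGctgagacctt
The E-box, read by basic helix-loop-helix factors, occurred once in the Adam19 and once in the Sorl1 window, and in 6.0% of 32851 windows of this length. The Atp6ap2 window held 3 CCAAT boxes, found in 33.8% of windows, and 2 GGGCGG boxes, found in 32.7%, where 1 box of each kind shares a base; Sorl1 held 1 GGGCGG box. Neither TATAAA (12.4% of windows) nor TGTGGT (14.0%) occurred in the 3 windows. Of the listed genes 26 had windows in the table, 39 in all, and 5 of these held CACGTG.

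Between the genotypes the fewest transcripts differed in activated cells, more in regulatory cells and the most in memory cells, for substrate genes as for all genes. Here each value is 1 array against 1 array, so no test is possible, and counts use a difference of at least 1.5-fold. In memory cells 4 of 28 measured substrate genes were that much higher on the Furin cKO array (14.3%, beside 13.4% of all 14200 genes) and 6 were lower (21.4%, beside 12.4%). In regulatory cells 5 of 29 were higher (17.2%, beside 9.46%) and 1 lower (3.4%, beside 7.6%). In activated cells 0 of 21 were higher (2.17% of all genes) and 1 was lower (4.8%, beside 2.49%). The median log2 fold of the substrate genes was -0.10, 0.08 and -0.08 in memory, regulatory and activated cells, against -0.0074, -0.016 and -0.0048 over all genes.

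In memory cells the chosen probe sets of Igf1r and Insr read lower. Igf1r gave 549 on the Furin cKO and 1142 on the control array, 2.08-fold lower, and Insr 392 against 603, 1.54-fold lower. The other Insr probe sets, both dim, had log2 folds of -0.062 and -0.12. The other Igf1r probe sets had log2 folds of -0.50, -0.13, 0.40 and 0.42, so that the size and, in the dim ones, the direction depend on the probe set. Notch3 read 276 against 159 (1.73-fold higher), while Notch1 read 2625 against 3703, a log2 fold of -0.50, with its other probe set at 0.34. Sorl1 read 4287 against 2588, 1.66-fold higher, and its other probe sets gave log2 folds of 0.50 and 0.47. Plxnb2 read 109 against 209.7, 1.93-fold lower.

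Among the proteases Adam9 read 557 on the memory Furin cKO and 266 on the control array, 2.09-fold higher, and Adam8 392 against 639, 1.63-fold lower; each has 1 probe set. The ligands Tnfsf13b (103 against 224) and Igf1 (98.6 against 189) were 2.18-fold and 1.91-fold lower, and Bdnf, the brain-derived neurotrophic factor, was at least 3.27-fold higher at 155 against 15.1. On the same arrays 14 of the 18 markers of myeloid and dendritic cells read lower, at a median log2 fold of -0.71, including Siglech, H2-Ab1 and Tyrobp (2679.9 against 6299). Of the granulocyte markers 7 of 8 were higher, with a median log2 fold of 2.76 and a summed signal of 8124 against 2168. Of the B cell markers 4 of 7 were higher with a median of 0.69 (Ms4a1 1285 against 297), and of the plasma cell markers 3 of 5 with a median of 0.17 (Jchain 3185 against 374, Igha 8432 against 1914). The part of any of these cell types in the folds of the substrate genes was not tested. When all probe sets of a gene were averaged, 2 substrate genes were at least 1.5-fold higher and 3 lower in memory cells.

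In regulatory cells Sort1 was the 1 substrate gene at least 1.5-fold lower, at 154 on the Furin cKO and 240.3 on the control array (1.56-fold lower). The other Sort1 probe sets, each with 1 array below the floor, gave log2 folds of -0.73 and 0.52. The 5 that were higher are dim growth factors and a protease: Igf1 (128 against 60.9), Vegfc (116 against 65.0), Bdnf (122 against 24.5), Adam12 (83.5 against 35.8) and Pdgfb (72.6 against 24.3). The other Vegfc probe sets gave log2 folds of -0.17, with 1 array below the floor, and -1.12, and their mean with the chosen one was -0.15. The other probe set of Adam12 gave -0.21 and that of Pdgfb 1.53, each with 1 array below the floor. That of Bdnf was below the floor on both arrays. Bdnf, Adam12 and Pdgfb are lower bounds, and 0 were higher once the floor was set at the 60th percentile. Of the granulocyte markers 6 of 7 measured were higher on this Furin cKO array too, with a median log2 fold of 1.13, and their part was not tested. Atp6ap1 read 2998 against 4286, short of 1.5-fold.

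In activated cells Plxnb2 was the 1 substrate gene past 1.5-fold, at 73.0 on the Furin cKO and 123 on the control array, and it was also 1.93-fold lower in memory cells. Both regulatory values were below the floor. Igf1r read 647 against 872 and Itgav 2589 against 2006, log2 folds of -0.43 and 0.37. The remaining measured members lay between -0.35 (Adam19, a bound) and 0.32 (Pdgfa). Adam10 gave 0.19 and Adam17 -0.26, and the other probe sets of both above the floor on these arrays were lower, so that the mean of the Adam10 probe sets gave -0.09.

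**Figure D4:**
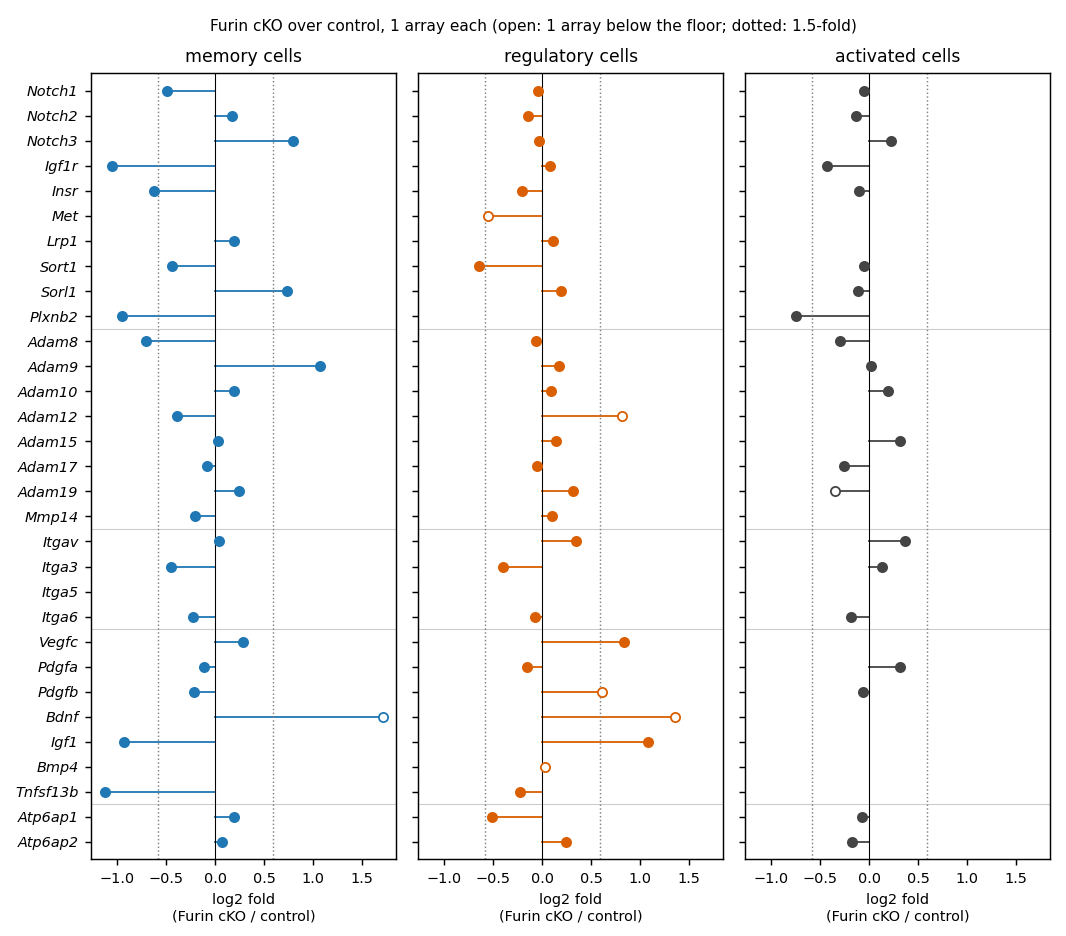
Log2 fold of signal, Furin cKO over control (x axis), for each substrate gene in memory, regulatory and activated cells, 1 array per genotype. Filled points have both arrays above the floor, open points 1 of them, and dotted lines mark 1.5-fold; genes without a point were below the floor on both arrays. Memory cells scatter widest, from -1.12 (Tnfsf13b) to at least 1.71 (Bdnf), and activated cells least, from -0.75 (Plxnb2) to 0.37 (Itgav).

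Of 20 measured in the 3 populations, 0 were at least 1.2-fold higher in each and 0 at least 1.2-fold lower, beside 0.961% and 1.2% of 10405 genes. At any size 4 were higher in each (Adam9, Adam10, Adam15 and Itgav), beside 11.6% of genes. In each 6 were lower (Notch1, Insr, Sort1, Adam8, Adam17 and Itga6), or 30.0%, beside 17% of genes. These directions depend on the chosen probe sets. With the mean of probe sets the log2 fold of Adam10 was -0.09 in activated cells. Adam15 and Adam17 turned to -0.04 and 0.07 in memory cells, and Itga6 to 0.06 in regulatory cells. Insr turned to 0.07 and 0.01 in activated and regulatory cells. Notch1, Sort1 and Itgav kept their directions, although another probe set of each went the opposite way in at least 1 population. In the limma fit over the 6 arrays 0 substrate genes and 0 of 15721 genes were called for genotype (percent called 0), and 0 substrate genes but 445 genes, or 2.83%, had an unadjusted p below 0.05. Such a p depends on the scatter of the genotype difference over the populations.

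The convertases and further substrates give the setting of these values. Of 7 convertase and related protease genes with a probe set 6 were tested, and Pcsk7 was called higher in memory and in regulatory over activated cells (1.64-fold and 1.46-fold, limma adjusted p = 0.022 and 0.048); Pcsk4 was called in regulatory over activated cells alone (2.33-fold, adjusted p = 0.0074; memory 1.47-fold, adjusted p = 0.056), the difference between these contrasts was not called (limma adjusted p = 0.14), and Furin was not called in either (adjusted p = 0.17 and 1). Of 8 genes for convertase inhibitors and furin sorting 3 were called higher and 1 lower in each contrast. Beside this list and the convertases, 27% of all genes were called higher and 17.4% lower in memory over activated cells. In regulatory over activated cells these shares were 26.7% and 18.2%. Pacs1, an adaptor that retrieves furin to the Golgi, and its relative Pacs2 were 5.63-fold and 5.28-fold higher in memory than in activated cells (limma adjusted p = 0.0023 and 0.002). Flna, an actin-binding protein that tethers furin, was 7.61-fold higher and Ap1m1, an AP-1 clathrin adaptor subunit, 2.89-fold lower (limma adjusted p = 0.0021 and 0.0036). In a second list of 35 substrates with a probe set, 31 were tested. In memory over activated cells 13 were called higher and 1 lower, beside 27% and 17.4% of all genes, and in regulatory over activated cells 12 and 0, beside 26.7% and 18.2%. Itga4, the alpha 4 integrin chain, read 11586 and 11621 in memory, 8728 and 8562 in regulatory, and 276 and 244 in activated cells (44.7-fold and 33.3-fold, limma adjusted p = 0.0018 and 0.0019). Among those above the floor on the 6 arrays Bmp7, Tgfb1 and Itga2b followed at 7.58-fold, 4.69-fold and 2.28-fold in memory over activated cells (limma adjusted p = 0.0019, 0.0043 and 0.035). Itgae, the alpha E integrin chain, named after its values were seen, was below the floor in activated cells and at least 32.9-fold higher in memory and 77.1-fold higher in regulatory cells (limma adjusted p = 0.0024 and 0.0021). Between genotypes 5 of 24 of this list were at least 1.5-fold higher and 6 lower in memory cells (13.4% and 12.4% of all genes), 1 and 3 of 22 in regulatory cells (9.46% and 7.6%), and 1 and 0 of 11 in activated cells (2.17% and 2.49%).

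Partners of the substrates were described from a list of 39 genes with a probe set, of which 37 were tested. In memory over activated cells 16 were called higher and 1 lower, beside 27% and 17.4% of all genes, and in regulatory over activated cells 12 and 2, beside 26.7% and 18.2%. Dtx1, a Notch target gene, read 5827 and 10665 in memory, 3366 and 3277 in regulatory, and 112 and 154 in activated cells. It was 59.9-fold and 25.2-fold over activated cells (limma adjusted p = 0.0019 and 0.0021). Of the Notch receptors, Notch1 was not called, Notch3 was called higher in both contrasts and Notch2 lower in regulatory cells. Any link between Dtx1 and these receptors was not tested. Itgb3 and Itgb5, beta chains that pair with alpha v, went opposite ways, 6.68-fold higher and 2.06-fold lower in memory and 5.60-fold higher and 5.15-fold lower in regulatory than in activated cells (limma adjusted p = 0.0055, 0.0078, 0.0071 and 0.0022). Itgb8, another alpha v partner named after its values were seen, read 415 and 476 in memory, 1331 and 1038 in regulatory, and 41.0 and 27.7 in activated cells, at least 24.7-fold higher in regulatory than in activated cells (limma adjusted p = 0.0019). Psen2, a catalytic subunit of gamma-secretase, was 3.28-fold and 6.34-fold higher in memory and regulatory than in activated cells (limma adjusted p = 0.0036 and 0.0022).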

How the data were processed

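RNA of 6 sorted or cultured CD4 T cell samples was read on 1 array each. The authors deposited linear intensities, and the submitters' processing notes name MAS5, without settings. With 2% of probe sets cut off at either end, every array averaged 500.003, a common scaling. Of 45101 probe sets 64 are controls, 34945 carry 1 gene symbol in the platform annotation, 932 several and 9160 none. Entrez identifiers of 34741 matched RefSeq genes of GRCm38.p6, used for names and promoter windows, and 0 symbols changed. Signals were raised to the floor, and log2 was taken. A gene below the floor on both arrays of a genotype comparison was left out of it. Where 1 array was below the floor, the fold is written "at least". Population and genotype were fitted with limma 3.58.1 in R 4.3.3 (2 residual degrees of freedom, Benjamini-Hochberg adjustment over 15721 genes), after a check on simulated data. Alternatives were quantile normalization, floors at the 20th and 60th percentiles, averaging the probe sets of a gene, no genotype factor and each array left out. For arrays, their number limits the precision.

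Named are the listed genes; from the further lists up to 4 genes with the largest difference above the floor, and Furin. The members, lists and rules were chosen with earlier results of these data known. A protein table was not used here, so cleavage motifs were not searched.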

Additional observations from a re-analysis of the deposited data

Results flagged for a closer look

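Igf1 differed between genotypes in opposite directions in 2 populations. Its log2 fold, Furin cKO over control, was -0.94 in memory cells and 1.08 in regulatory cells. The difference between these folds was not tested. The signals are dim, at 98.6 and 189 in memory and 128 and 60.9 in regulatory cells, and the other 3 Igf1 probe sets reached at most 58.4.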

How the results depend on the processing

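For genotype, 1.5-fold lower genes in activated cells numbered 2 with quantile normalization, and 3 and 0 when the floor was the 20th or the 60th percentile, and higher ones 5 at the 20th. In memory cells the mean of probe sets gave 2 higher and 3 lower. In regulatory cells higher genes numbered 3 with quantile normalization, 0 at the 60th percentile floor and 2 with the mean of probe sets; lower genes numbered 2 at the 20th percentile and 0 with the mean. For memory over activated cells 8 were called higher with quantile normalization and 8 at the 60th percentile floor. For regulatory over activated cells 8 were called lower with quantile normalization, 3 at the 20th percentile floor, and 7 higher at the 60th. Memory over regulatory cells gave 1 higher and 1 lower with no genotype factor, and likewise at the 60th percentile floor. With each array left out, which leaves 1 residual degree of freedom, memory over activated cells gave 2 to 8 higher and 0 to 2 lower, and regulatory over activated cells 0 to 10 higher and 0 to 5 lower. In these fits the remaining array of a population is assumed to vary like the others. With all arrays kept, 1 genotype fold of at least 1.5-fold changed sign, Vegfc in regulatory cells to -0.15 (mean of probe sets). So did 5 population differences that were called on either side, all in regulatory over activated cells. Lrp1, Adam15 and Pdgfa turned to -0.035, -0.47 and -0.83 (quantile normalization), and Adam10 and Adam17 to 0.16 and 0.67 (mean of probe sets). A further 16 genotype folds below 1.5-fold changed sign, among them Adam10 in activated cells (-0.0913, mean of probe sets). Sign also changed in 12 population differences that were not called, some of them past 1.5-fold. Plxnb2 in memory over activated cells turned from 0.67 to -0.17 (quantile normalization). Itga3 in memory over regulatory cells turned from -0.65 to 0.018 (mean of probe sets). The cause was not tested. The labels give no replicate numbers; the genotype fit compares genotypes within populations, which serve as blocks. Dim genes near the floor limit what these arrays can show.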
